A study of Mus musculus with 22 samples.

Results

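The genes described here are 10 heat shock proteins and chaperones, of the 37680 gene IDs in a table of RNA counts from whole mouse embryos. They are Hspa8, Hspa5, Hspa4 and Hsph1 of the Hsp70 and Hsp110 families, the J-domain proteins Dnaja1 and Dnajb1, the cytosolic Hsp90 genes Hsp90aa1 and Hsp90ab1, and the mitochondrial chaperonin genes Hspd1 and Hspe1. They were taken by symbol, each matched 1 gene ID, and all 10 passed the filter on low counts in every comparison. The list was chosen by earlier results of these same libraries, that is, by values of the same count table, though no threshold on a value was applied and the comparison in view is not recorded. The changes with doxycycline are therefore given as a description, and a count of members is read only beside the share of all genes called in the same comparison.

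The study forced expression of Oct4 or Nanog, transcription factors of pluripotent cells, in embryos at E7.5 and E9.5. All embryos were C57BL/6 and carried 1 transgenic allele at ROSA26 and 1 doxycycline-responsive allele, with the genotype ROSA26tg/+; Oct4tg/+ in the Oct4 line or ROSA26tg/+; Nanogtg/+ in the Nanog line, controls included. Mothers of the induced E7.5 pools received doxycycline intraperitoneally at E4.5 and then in drinking water, and mothers of the induced E9.5 pools received it in water from E6.5. The Oct4 line had 3 control and 3 induced pools at each stage, and the Nanog line had 2 control and 3 induced pools at each stage. A pool held 8 to 12 embryos at E7.5 and 3 embryos at E9.5. No group received doxycycline without a transgene, so the effects of drug and transgene cannot be told apart, and in whole-embryo RNA fewer cells of a type cannot be told apart from less RNA per cell.

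Chaperones bind unfolded or partly folded proteins and, through cycles of ATP binding and hydrolysis, let them fold, assemble or be handed on for degradation. Hsp70 proteins receive clients from J-domain proteins, which also speed ATP hydrolysis, while Hsp110 proteins act as nucleotide exchange factors, and Hsp90 proteins mature kinases, receptors and other clients passed on to them. Some family members are made in all cells at all times, and others are raised by heat shock factors under proteotoxic stress, or by the unfolded protein response in the case of the endoplasmic reticulum.

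Heat shock factors bind inverted repeats of a short unit, the heat shock element, and ATF6 binds the endoplasmic reticulum stress element. RefSeq promoters on GRCm38.p6, from 250 bases before to 50 bases after a start, were listed for 7 of the 10 members with 12 start sites. No entry was given for Hspa8, Hsp90aa1 or Hsp90ab1. A run of 3 units (GAANNTTCNNGAA or TTCNNGAANNTTC, on either strand) was present in promoters of Hspd1, Hspe1 and Hsph1, and in 0.603% of all 32851 promoters (0.662% of 27025 genes). A run of 2 units (GAANNTTC or TTCNNGAA), which every run of 3 units contains, was present in Dnaja1 as well, and in 15.1% of all promoters (17.0% of genes). The endoplasmic reticulum element (CCAAT and CCACG separated by 9 bases) was present in Hspa5 alone among the 7 members and in 0.119% of all promoters (0.137% of genes). The 4 stretches below show where such letters lie, with the matched letters in capitals, read 5′ to 3′ on the strand of the gene. The runs of 2 units shown for Hsph1 and Dnaja1 are of a kind common among all promoters. Hspe1 lies at chr1:55088053-55088082 on the plus strand, and the same bases, read on the other strand, were the match in Hspd1, whose start lies beside that of Hspe1. Hsph1 lies at chr5:149636342-149636389 on the minus strand, Dnaja1 at chr4:40722324-40722371 on the plus strand and Hspa5 at chr2:34772005-34772063 on the plus strand. A match is a description of letters and not evidence of binding.
Hspe1: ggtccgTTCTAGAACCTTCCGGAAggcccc
Hsph1: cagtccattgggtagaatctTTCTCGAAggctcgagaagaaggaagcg
Dnaja1: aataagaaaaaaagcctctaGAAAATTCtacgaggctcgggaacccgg
Hspa5: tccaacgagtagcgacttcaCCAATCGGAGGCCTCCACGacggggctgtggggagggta
The capitals in Hspe1 cover overlapping matches to both runs of 3 units. The run of 3 units in Hsph1 lies after the start and is not shown.

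These genes were abundant in every pool. Together they took 1.13% to 1.93% of the counts of a library, and 9 of the 10 held ranks 4 to 396 of all genes by mean CPM (counts scaled to the library total), with Dnajb1 at rank 3963. Per kilobase of the longest coding transcript, the mean level over all 22 pools was 1763 CPM per kb for Hsp90ab1, 1179 for Hspa8, 884 for Hsp90aa1, 549 for Hspd1, 493 for Hspe1 and 408 for Hspa5. It was 153 CPM per kb for Hspa4, 101 for Hsph1, 85.2 for Dnaja1 and 26.8 for Dnajb1. Hsp90ab1 and Hspa4 were the steadiest, with the highest pool at 1.42 and 1.44 times the lowest, and Hspa8, Hsp90aa1 and Hsph1 the most variable, at 2.68, 2.56 and 2.52 times.

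**Figure D1:**
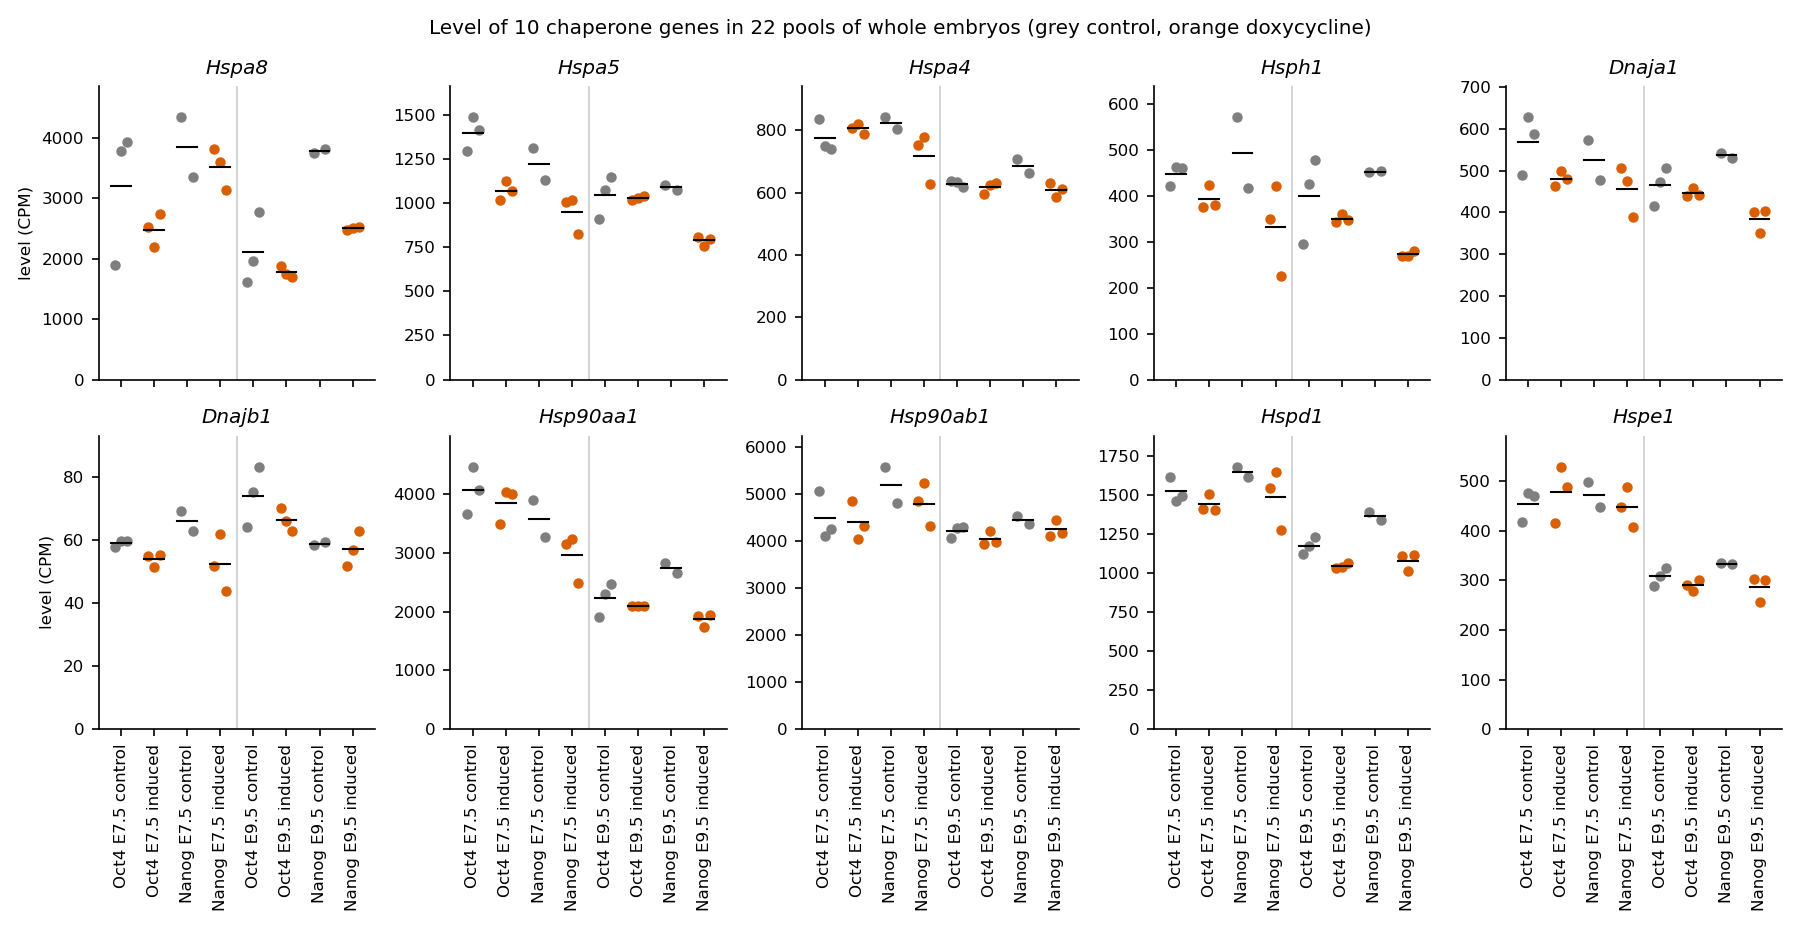
Level of each chaperone gene in CPM (vertical axis, from 0) in each pool (points) of the 8 groups, with the group mean as a line, controls in grey and doxycycline in orange. Nanog E9.5 induced pools lie below Nanog E9.5 controls in 8 of the 10 panels, and most E9.5 pools lie below E7.5 pools for Hspd1, Hspe1 and Hsp90aa1.

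Library totals ran from 4.72 M to 42.3 M counts, and at E9.5 the Nanog induced pools (4.77 M to 5.63 M) were shallower than the Nanog controls (15.7 M to 15.8 M). In its own line each induced gene followed the labels. Pou5f1, the gene of Oct4, rose from 203 to 242 CPM in controls to 477 to 606 in induced pools of the Oct4 line at E7.5, and from 0.423 to 1.29 to 257 to 283 at E9.5. Nanog rose in its own line from 17.2 to 22.8 CPM to 53.9 to 117 at E7.5 and from 2.06 to 2.35 to 348 to 354 at E9.5. At E7.5 each gene was also higher in the induced pools of the other line. Pou5f1 read 222 and 245 CPM in Nanog line controls and 460, 534 and 581 in induced pools. Nanog read 17.2 to 20.5 CPM in Oct4 line controls and 24.3 to 34.0 in induced pools. Embryo markers matched the stages: the 6 E9.5 markers summed to at least 554 CPM in E9.5 pools and at most 116 in E7.5 pools. Decidua markers (7 genes of the maternal tissue around the embryo) summed to 59.2 to 273 CPM at E7.5 and to at most 18.4 at E9.5, and trophoblast giant cell markers (4 genes) to 4.14 to 103 and to at most 2.95, with Ctsj at 0 throughout.

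Some of these genes share sequence with gene models elsewhere, called copies here, which bears first on Hspa8, the constitutive cytosolic Hsp70. Of the 36-base stretches of Hspa8 (chr9:40609067-40613283 on NCBIM37, plus strand), 44.4% occurred in other gene models, and 4 models elsewhere in the genome, led by the pseudogene Gm15459 and the lincRNA Gm17431 at 1 locus of chromosome 5, took 28.9% to 63.7% of the joint count. Among Oct4 E7.5 controls the level of Hspa8 was 1901, 3790 and 3933 CPM while the copies took 61.7%, 31.5% and 30.8%, and the joint level was 4960, 5536 and 5680 CPM. The low value of the first pool thus went with a high share in the copies. At E9.5 the copies took 52.3% to 63.7% in Oct4 pools and 31.9% to 33.6% in Nanog pools, so levels of Hspa8 alone are not comparable between the lines.

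**Figure D2:**
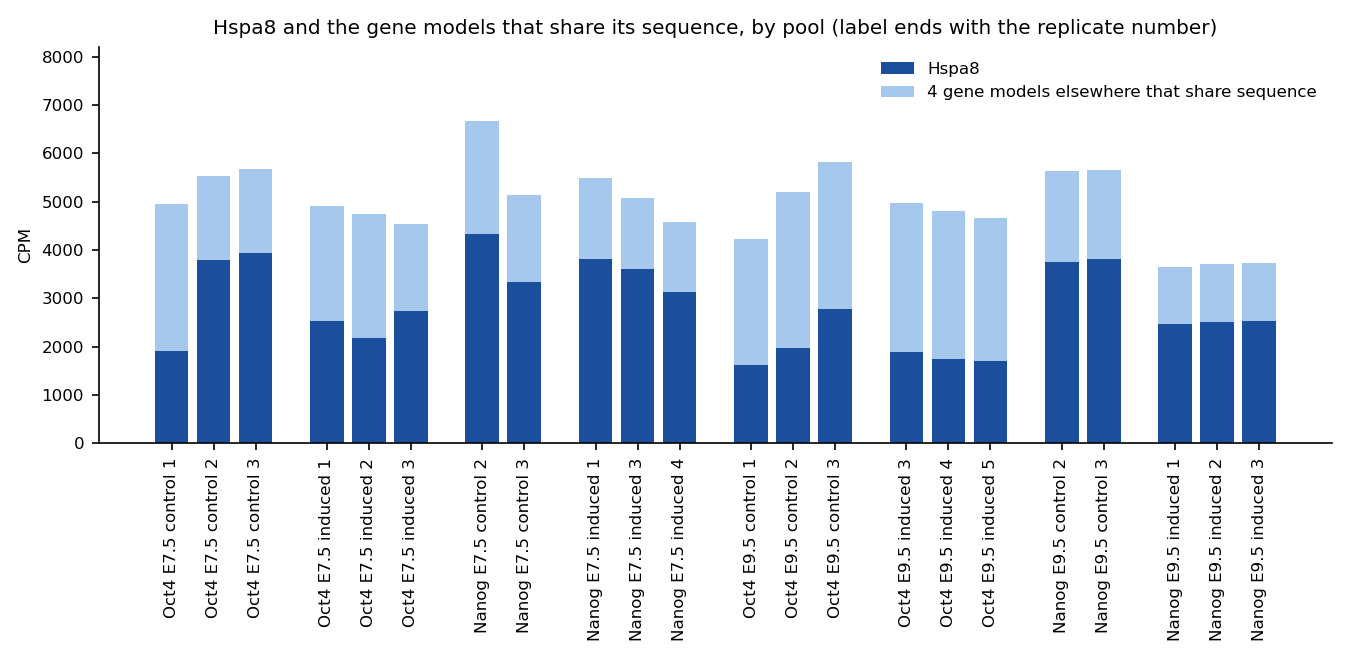
CPM of Hspa8 (dark) with the 4 gene models elsewhere that share its sequence (light) stacked on top, in each of the 22 pools. In Oct4 E9.5 pools the copies hold more than Hspa8 itself, while the Nanog E9.5 induced pools have the lowest joint level, 3642 to 3722 CPM.

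For the other members the share in the copies was smaller. For Dnaja1, 3 pseudogenes took 6.43% to 24.0% of the joint count, and its gene overlaps those of Smu1 and Gm6297. The copies took at most 2.13% for Hsp90aa1, 1.41% for Hspe1 and 0.0246% for Hspd1, although 57.7% of the stretches of Hspd1 occurred elsewhere. Whether reads in the copies came from the members or from the copies themselves was not tested. Hsph1, Hspa4 and Hspa5 shared no stretch. Hspd1 and Hspe1 are read from opposite strands and overlap over chr1:55144976-55145087 on NCBIM37, and whether counting used strand is not given in the sources used here.

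The Nanog line at E9.5 held most of the calls of members with doxycycline. In the Nanog line at E9.5, 8 of the 10 members fell, by 0.21 to 0.77 on the log2 scale, with no overlap between control and induced pools. Of all genes tested there, 28.4% were called (13.0% lower), and pools were apart with lower induced values for 22.8%. In the Oct4 line at E9.5, 1 member was called, Hspd1, lower and with no overlap (9.29% of all genes called and 4.61% lower, and 12.7% apart with lower induced values). No member was called by edgeR at E7.5 in the Oct4 line (6.17% of genes) or the Nanog line (7.78%). At E7.5, 2 members were apart with lower induced values in the Oct4 line (14.3% of all genes) and 4 in the Nanog line (27.7%). In each of these 2 inductions 1 member, Hspa5, had an unadjusted p under 0.05, and DESeq2 called it in the Oct4 line and no member in the Nanog line, while limma-voom called 0 in both. The median log2 fold change of the members was -0.44 in Nanog E9.5, -0.09 in Oct4 E9.5, -0.15 in Nanog E7.5 and -0.07 in Oct4 E7.5, while the median over all genes lay between 0.00 and 0.02 in each. Calls are at an adjusted p under 0.05 by edgeR's quasi-likelihood test with Benjamini-Hochberg adjustment over all genes, and p-values below come from it. The labels do not say that pools came from separate litters, so the p-values measure only the spread between these pools.

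**Figure D3:**
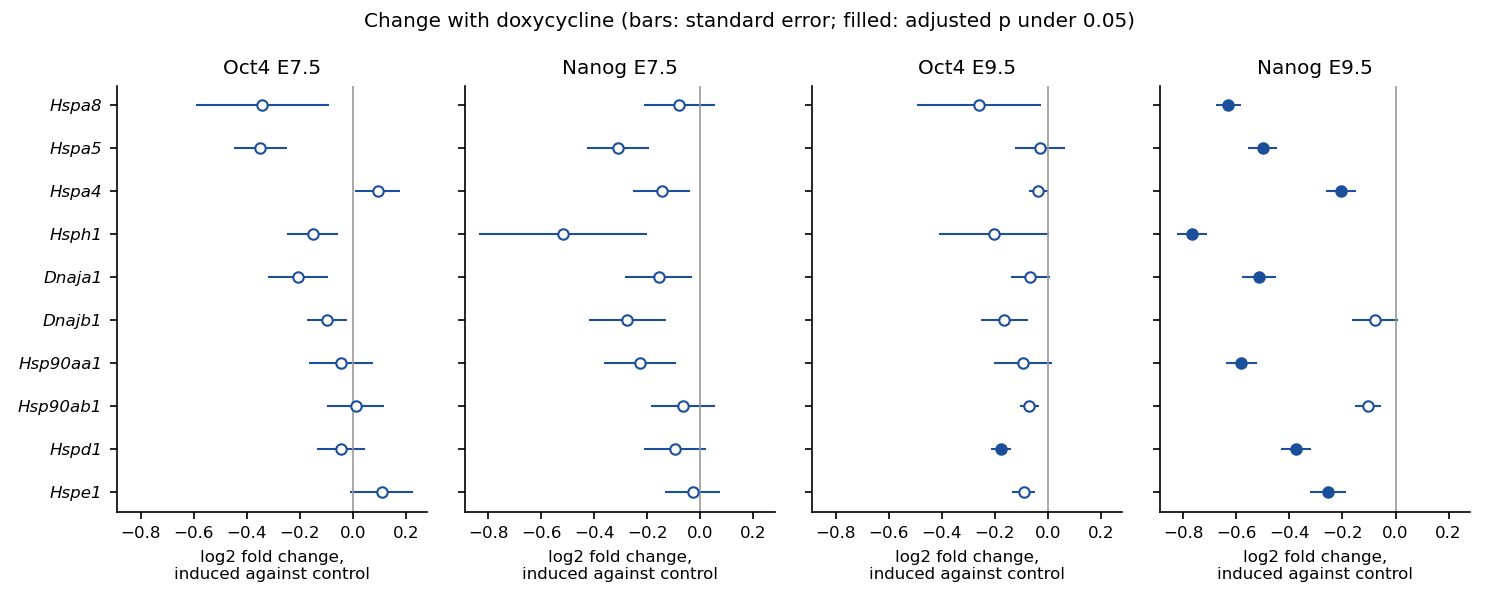
Log2 fold change of each member, induced against control pools of the same line and stage (horizontal axis), for the 4 inductions, with bars for the standard error and filled points for an adjusted p under 0.05. In Nanog E9.5, 8 points are filled and negative, with Hsp90ab1 and Dnajb1 open, and Hspd1 is the only filled point elsewhere.

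Hspa8 stood at 3747 and 3816 CPM in Nanog E9.5 controls and at 2478, 2508 and 2525 in induced pools, a log2 fold change of -0.63 ± 0.05 (standard error, edgeR adjusted p = 2.83e-07). The induced pools lay together and well below both controls. With the copies added, the change was -0.65 ± 0.05 (edgeR adjusted p = 1.4e-07). In 1 model over all 22 libraries Hspa8, Hspa4 and Hspe1 were not called in Nanog E9.5 (edgeR adjusted p = 0.11, 0.0683 and 0.11). In the other inductions the fold change of Hspa8 lay between -0.34 and -0.08 and its pools overlapped. In Oct4 E9.5 the pools of Hspa8 read 1618, 1964 and 2774 CPM in controls and 1886, 1754 and 1694 in induced, and the difference of -0.26 ± 0.23 was within that spread (edgeR adjusted p = 0.598). At Oct4 E7.5, without control 1, whose copies took most of the joint count, it was -0.62 ± 0.10 (edgeR adjusted p = 0.03), but with the copies added and all pools kept it was -0.16 ± 0.10 (edgeR adjusted p = 0.498).

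Hsph1, the Hsp110 exchange factor that re-arms Hsp70, had the largest fold change of the members in Nanog E9.5. Its level was 452 and 453 CPM in controls and 269, 269 and 279 in induced pools, a change of -0.77 ± 0.06 (edgeR adjusted p = 2.2e-07). The groups were apart and each was tight. In Oct4 E9.5 the controls of Hsph1 spread from 296 over 426 to 477 CPM and the induced pools lay at 342, 361 and 347, inside that range (-0.20 ± 0.21, edgeR adjusted p = 0.651). In Nanog E7.5 the controls were 570 and 417 CPM and the induced pools 349, 422 and 226, which overlapped (-0.52 ± 0.32, edgeR adjusted p = 0.41). In Oct4 E7.5 Hsph1 differed by -0.15 ± 0.10 (edgeR adjusted p = 0.499), with overlapping pools.

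Hspa5, or BiP, is the Hsp70 of the endoplasmic reticulum and a classical target of the unfolded protein response. In Nanog E9.5 it fell from 1104 and 1072 CPM to 806, 758 and 799 (-0.50 ± 0.05, edgeR adjusted p = 1.28e-05). In Oct4 E7.5 the controls stood at 1294, 1484 and 1411 CPM and the induced pools at 1014, 1126 and 1070. In Nanog E7.5 the controls stood at 1310 and 1129 CPM and the induced pools at 1007, 1019 and 827. In both E7.5 inductions Hspa5 was lower in all induced pools than in any control, yet the fold changes of -0.35 ± 0.10 and -0.31 ± 0.12 did not pass (edgeR adjusted p = 0.0865 and 0.145). Pools were apart in this direction for 14.3% and 27.7% of all genes tested in these 2 inductions. Under other settings the Oct4 E7.5 value passed with DESeq2 (adjusted p = 0.00937), with library totals as the only scaling (edgeR adjusted p = 0.0346) and in 1 model over all 22 libraries (edgeR adjusted p = 0.013), and without induced pool 2 (edgeR adjusted p = 0.0377). With the replicate block it passed as well (edgeR adjusted p = 0.0196). The Nanog E7.5 value of Hspa5 passed in 1 model over all 22 libraries (-0.30 ± 0.10, edgeR adjusted p = 0.0432) and against the Oct4 controls (-0.57 ± 0.11, edgeR adjusted p = 0.00458), where 23.7% of all genes were called and 12.0% lower. Hspa5 in Oct4 E9.5 read 912, 1076 and 1147 CPM in controls and 1018, 1028 and 1042 in induced pools, with no difference beyond the spread (-0.03 ± 0.09, edgeR adjusted p = 0.896).

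Hspa4, a second Hsp110-type exchange factor, changed least of the Hsp70 relatives that were called. In Nanog E9.5 it fell from 708 and 664 CPM to 631, 585 and 612 (-0.21 ± 0.06, edgeR adjusted p = 0.0134), and without control 2 the difference of -0.16 ± 0.08 no longer passed (edgeR adjusted p = 0.2). In the other inductions its fold change lay between -0.15 and 0.09, with no call. In Nanog E7.5 its pools did not overlap, at 804 and 842 CPM in controls and 627 to 778 in induced pools, as for 27.7% of all genes in this direction. In Oct4 E7.5 Hspa4 read 836, 750 and 741 CPM in controls and 809, 821 and 789 in induced pools.

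The 2 J-domain genes parted in Nanog E9.5 against that line's own controls, though the difference between the genes was not tested. Dnaja1, a type I J-domain cochaperone of cytosolic Hsp70, fell in Nanog E9.5 from 543 and 531 CPM to 401, 351 and 403 (-0.52 ± 0.06, edgeR adjusted p = 5.68e-05), and by as much with its copies added (-0.51 ± 0.06). It did not pass in the other inductions, where the fold change lay between -0.21 and -0.07. Dnajb1, or Hsp40, which is strongly heat-inducible, read 58.2 and 59.3 CPM in Nanog E9.5 controls and 51.5, 56.6 and 62.8 in induced pools. The induced pools of Dnajb1 lay on both sides of the controls (-0.08 ± 0.09, edgeR adjusted p = 0.53). Against the Oct4 E9.5 controls, the same pools gave -0.27 ± 0.08 for Dnaja1 and -0.38 ± 0.10 for Dnajb1. Neither was called there (edgeR adjusted p = 0.108 and 0.0589). At E7.5 the induced pools of Dnajb1 lay below all controls in both lines, without passing (edgeR adjusted p = 0.61 in the Oct4 line and 0.286 in the Nanog line). They read 51.4 to 55.2 against 57.7 to 59.7 CPM in the Oct4 line and 43.9 to 61.7 against 62.9 to 69.1 in the Nanog line. Of all genes tested, 14.3% and 27.7% were apart in this direction in these inductions.

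The 2 cytosolic Hsp90 genes also parted in Nanog E9.5 against that line's own controls. Hsp90aa1, the stress-responsive paralog, fell in Nanog E9.5 from 2821 and 2649 CPM to 1932, 1742 and 1946 (-0.58 ± 0.06, edgeR adjusted p = 5.6e-06). Hsp90ab1, the constitutive paralog and the most abundant member per length, stood at 4534 and 4363 CPM in controls and 4101, 4449 and 4178 in induced pools. Its groups overlapped, and the change was -0.10 ± 0.05 (edgeR adjusted p = 0.137), or -0.14 ± 0.03 without induced pool 2 (edgeR adjusted p = 0.00731). In Oct4 E9.5 the Hsp90aa1 induced pools lay within 2092 to 2102 CPM and the controls spread from 1909 to 2462. In Nanog E7.5 it stood at 3892 and 3273 CPM in controls and 3157, 3242 and 2489 in induced pools, without passing (-0.23 ± 0.14, edgeR adjusted p = 0.348). Those pools did not overlap, as for 27.7% of all genes tested there in this direction. Neither Hsp90 gene was called in the other 3 inductions.

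The mitochondrial chaperonin Hspd1 (Hsp60) forms the folding chamber that Hspe1 (Hsp10) caps. In Nanog E9.5 Hspd1 fell from 1389 and 1340 CPM to 1108, 1013 and 1114 (-0.37 ± 0.06, edgeR adjusted p = 0.000246). Hspe1 fell from 334 and 333 CPM to 302, 256 and 302 (-0.26 ± 0.07, edgeR adjusted p = 0.012), and without either control pool it no longer passed (edgeR adjusted p = 0.0862 and 0.0599). Hspd1 was the 1 member called in Oct4 E9.5, from 1118, 1173 and 1230 CPM to 1033, 1040 and 1061 (-0.18 ± 0.04, edgeR adjusted p = 0.00518). Every induced pool lay below every control, and the value in 1 model over all 22 libraries was -0.19 ± 0.08 (edgeR adjusted p = 0.302). At E7.5 Hspd1 and Hspe1 differed by -0.10 to 0.11 on the log2 scale, with overlapping pools in both lines.

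In some groups 1 pool was lowest or highest for most members, so single pools carry weight. In others it was not: among Oct4 E7.5 induced pools, pool 1 was lowest for 5 members, pool 2 for 3 and pool 3 for 2. Whether genes outside the list had the same order of pools was not tested. Oct4 E9.5 control 1 was the lowest of its group for 9 of the 10 members and control 3 the highest for 9. Without control 1, 5 members fell in Oct4 E9.5: Hsph1 (-0.38 ± 0.05), Dnajb1 (-0.26 ± 0.07), Hsp90aa1 (-0.20 ± 0.04), Dnaja1 (-0.14 ± 0.04) and Hspd1 (-0.21 ± 0.04), where 8.1% of all genes were called and 4.03% lower. Without control 3 the values moved the other way: Hspd1 alone was called (-0.14 ± 0.04), Hsph1 stood at -0.06 ± 0.20, Hspa8 at -0.02 ± 0.12, Hsp90aa1 at -0.01 ± 0.09, Dnaja1 at -0.00 ± 0.05 and Hspa5 at 0.04 ± 0.07. In Nanog E7.5, induced pool 4 was the lowest and control 3 the lower control for all 10 members. Without induced pool 4 no member passed either, and 3 of the 10 fold changes turned to small positive values, at most 0.03. The Nanog E7.5 groups also stood apart in other readouts, whose part was not tested. Gene models under 80 bases summed to 31.3 to 36.8 CPM in controls and 0.575 to 1.125 in induced pools, and mitochondrial genes took 3.30% to 3.63% and 5.27% to 8.26% of the counts, with induced pool 4 the highest. Trophoblast giant cell markers summed to 4.14 to 58.6 CPM in controls, with Prl3b1 and Ctsj at 0, and to 74.0 to 103 in induced pools, with Ctsj at 0.

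The fall in Nanog E9.5 was read against the 2 control pools of that line. At E9.5 the Nanog controls stood above the Oct4 controls for Hspd1 (0.25 ± 0.04, edgeR adjusted p = 0.00116), Hspa4 (0.16 ± 0.04, 0.00932), Hsp90ab1 (0.12 ± 0.04, 0.0327) and Hspe1 (0.15 ± 0.05, 0.0344). That is 4 of 10 members higher, where 25.6% of all genes were called and 12.6% were higher. Hspd1 was called with each control pool left out in turn (0.22 to 0.29), while Hspa4 lost its call without 2 of the 5 pools, Hsp90ab1 without 3 and Hspe1 without 4, and 1 to 6 members were called higher. At E7.5 no member was called by edgeR between the controls of the lines (7.05% of genes called), and 2, Hspa5 and Hsp90aa1, had an unadjusted p under 0.05. Without Oct4 control 1 both were called, lower in the Nanog line (-0.33 ± 0.08 for Hspa5 and -0.33 ± 0.09 for Hsp90aa1), where 20.1% of all genes were called and 11.1% lower.

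Set against the Oct4 controls of the same stage, the Nanog E9.5 induced pools were lower for 1 member, Hspa5 (-0.41 ± 0.08, edgeR adjusted p = 0.0307). In that comparison 390 genes (2.9%, and 1.81% lower) were called in all, against 3772 with the Nanog line's own controls. Hsph1 (-0.56 ± 0.21), Dnaja1 (-0.27 ± 0.08), Hsp90aa1 (-0.25 ± 0.11), Hspd1 (-0.12 ± 0.05), Hspe1 (-0.10 ± 0.06) and Hspa4 (-0.05 ± 0.04) kept a negative sign without passing, Dnajb1 stood at -0.38 ± 0.10 (edgeR adjusted p = 0.0589) and Hsp90ab1 at 0.01 ± 0.04. Hspa8 took the opposite sign, 0.24 ± 0.23, and with its copies added it was -0.46 ± 0.13 (edgeR adjusted p = 0.207). By level, the Nanog E9.5 induced pools of Hsph1 (269 to 279 CPM) and Hspa5 (758 to 806) still lay below all Oct4 E9.5 controls (296 to 477 and 912 to 1147). So did Dnaja1 (351 to 403 against 415 to 505), Hspd1 (1013 to 1114 against 1118 to 1230) and Dnajb1 (51.5 to 62.8 against 63.9 to 83.0). The other members overlapped, and the share of all genes apart in this comparison was not computed. Line, sequencer and depth cannot be told apart here, since the labels name 2 sequencers without assigning them to pools.

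**Figure D4:**
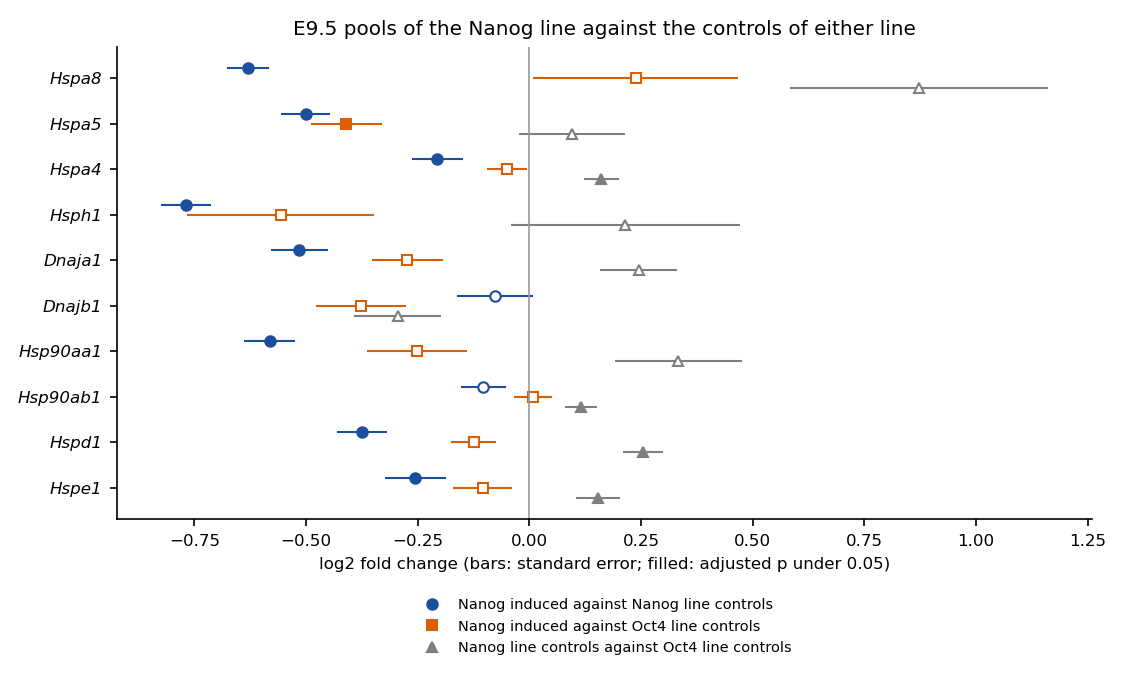
Log2 fold change at E9.5 of the Nanog induced pools against Nanog controls (circles), of the same pools against Oct4 controls (squares), and of Nanog against Oct4 controls (triangles), with bars for the standard error and filled symbols for an adjusted p under 0.05. Hspa5 is the only filled square, and Hspa8 has its triangle farthest to the right at 0.87 without the copies.

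Some other readouts moved with the fall in Nanog E9.5, and their part in it was not tested. Immediate early genes, which are transcribed soon after many stimuli, were called higher for 3 of 6 tested (Jun, Junb and Ier2), where 15.4% of all genes were. Their summed level over 8 genes was 76.4 to 82.9 CPM in Nanog E9.5 controls, 110 to 131 in Nanog induced pools, and 110 to 120 in all Oct4 E9.5 pools, with none at 0. The 6 E9.5 embryo markers summed to 1920 to 2350 CPM in Nanog controls and 554 to 667 in induced pools, with Hbb-bh1 (an embryonic globin) and Pax6 (an eye and neural gene) lower and Sox10 (a neural crest gene) higher, and none at 0. Decidua markers overlapped, at 0.825 to 5.87 CPM in those controls and 2.84 to 4.37 in induced pools. S100a8 and S100a9 were at 0 in the controls and Prl3c1 and S100a9 at 0 in the induced pools.

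The difference between lines in the change with doxycycline was tested directly. At E9.5 the change was less negative in the Oct4 line than in the Nanog line for Hspa5 (a difference of 0.47 ± 0.10, edgeR adjusted p = 0.00845), Dnaja1 (0.45 ± 0.10, 0.00918) and Hspd1 (0.20 ± 0.07, 0.0434). That is 3 of 10 members, where 13.5% of all genes were called and 5.57% in this direction. Without Nanog control 2 none of the 3 passed (edgeR adjusted p = 0.0532, 0.0574 and 0.191 for Hspa5, Dnaja1 and Hspd1). Without Nanog induced pool 2 Hspa5 did not pass (0.447 ± 0.126, edgeR adjusted p = 0.0752). Hspd1 also missed without Nanog control 3, Nanog induced 2 or any of 5 Oct4 pools (controls 1 and 2, induced 3, 4 and 5), at edgeR adjusted p = 0.0587 to 0.0969. Hsph1 had the largest point value, 0.57 ± 0.24, and did not pass (edgeR adjusted p = 0.168), and Hsp90aa1 missed at 0.49 ± 0.14 (edgeR adjusted p = 0.0517). At E7.5 no member was called for a difference between lines (0.204% of genes called by edgeR), 0 had an unadjusted p under 0.05, and DESeq2 and limma-voom called 0. Between stages, Hspa8 changed more negatively at E9.5 than at E7.5 in the Nanog line (-0.56 ± 0.14, edgeR adjusted p = 0.0218, and -0.48 ± 0.14 with its copies added), the 1 member of 10 where 12.8% of all genes were called and 4.79% in this direction, split into 1194 higher and 713 lower, or 1696 and 427 with library totals as the only scaling. The call of Hspa8 was lost without Nanog E7.5 control 3 (-0.39 ± 0.13, edgeR adjusted p = 0.115), and without either E9.5 control or without E9.5 induced pool 1 or 2 (edgeR adjusted p = 0.0515 to 0.0838). In the Oct4 line no member was called for a difference between stages (6.69% of genes called by edgeR), 1, Hspa5, had an unadjusted p under 0.05, and DESeq2 and limma-voom called 0.

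From E7.5 to E9.5, controls of both lines had less chaperone RNA. In the Oct4 line 7 members were lower at E9.5 and none higher, where 73.5% of all genes were called (37.1% lower). In the Nanog line 7 were lower and none higher, where 63.8% of all genes were called (32.0% lower). Pools of the stages were apart with lower E9.5 values for 5 members in the Oct4 line (29.8% of all genes) and 7 in the Nanog line (37.3%), and with higher E9.5 values for 1 member, Dnajb1, in the Oct4 line (47.3%). The medians over the members were -0.54 and -0.26, beside -0.02 and 0.01 over all genes. Hsp90aa1 fell in the Oct4 line from 3657, 4458 and 4076 CPM to 1909, 2306 and 2462 (-1.07 ± 0.11, edgeR adjusted p = 2.91e-05) and in the Nanog line from 3892 and 3273 CPM to 2821 and 2649 (-0.45 ± 0.09, edgeR adjusted p = 0.00245). The stages did not overlap in either line. Hspe1 fell from 417, 476 and 469 CPM to 289, 310 and 324 in the Oct4 line (-0.76 ± 0.07, edgeR adjusted p = 2.6e-06) and from 498 and 447 to 334 and 333 in the Nanog line (-0.56 ± 0.06, edgeR adjusted p = 2.51e-06).

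Hspd1 fell with it, by 0.57 ± 0.06 in the Oct4 line and by 0.33 ± 0.05 in the Nanog line on the log2 scale. Hspa4 fell by 0.50 ± 0.06 and 0.33 ± 0.06, Hspa5 by 0.62 ± 0.09 and 0.23 ± 0.07, and Hsp90ab1 by 0.28 ± 0.07 in each line. Dnaja1 fell in the Oct4 line (-0.49 ± 0.11, edgeR adjusted p = 0.00321) and was at -0.03 ± 0.08 in the Nanog line (edgeR adjusted p = 0.734). Whether the lines differ in these stage changes was not tested. Hspa8 (-0.80 ± 0.40 and -0.09 ± 0.15) and Hsph1 (-0.36 ± 0.18 and -0.19 ± 0.20) passed in neither line. In the Oct4 line Hspa8 passed in 1 model over all libraries (edgeR adjusted p = 0.00683), with limma-voom (adjusted p = 0.0371) and without E7.5 control 1 (-1.08 ± 0.29, edgeR adjusted p = 0.0406), and Hsph1 with limma-voom (adjusted p = 0.0372) and without E9.5 control 3 (-0.51 ± 0.15, edgeR adjusted p = 0.0225). With the replicate block both passed (edgeR adjusted p = 0.0107 for Hspa8 and 0.00612 for Hsph1). In the Nanog line, leaving out 1 E7.5 control left 1 E7.5 pool. Control 2 was the higher E7.5 control for all 10 members. The values without control 3 therefore set 1 high pool against the E9.5 controls, and their spread at E7.5 was not measured. In the Nanog line without E7.5 control 3, all 10 members were called lower, where 26.7% of all genes were (53.6% called), among them Hsph1 (-0.41 ± 0.06), Hspa8 (-0.27 ± 0.05) and Dnaja1 (-0.17 ± 0.06). Without E7.5 control 2, Hspa5 in the Nanog line was at -0.12 ± 0.05 and did not pass (edgeR adjusted p = 0.0965), nor did it in 1 model (0.0927). With the copies added the Oct4 value of Hspa8 was -0.28 ± 0.11 (edgeR adjusted p = 0.0517).

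Dnajb1 was the only member with a positive fold change between stages, in the Oct4 line alone. It read 57.7, 59.5 and 59.7 CPM at E7.5 and 63.9, 75.1 and 83.0 at E9.5 in Oct4 controls (0.13 ± 0.09, edgeR adjusted p = 0.194), while in the Nanog line it fell from 69.1 and 62.9 CPM to 58.2 and 59.3 (-0.23 ± 0.08, edgeR adjusted p = 0.0161). With library totals as the only scaling, the median of all genes in the Oct4 line moved to 0.18, Dnajb1 passed at 0.33 ± 0.08 (edgeR adjusted p = 0.00412), Hsp90ab1 no longer passed at -0.09 ± 0.08, and the calls over all genes changed from 5751 higher and 5844 lower to 7145 and 4459. With that scaling, Dnajb1 in the Nanog line stood at -0.17 ± 0.08 and did not pass (edgeR adjusted p = 0.0666). That call was lost in 6 of 12 alternatives, the others being DESeq2 (adjusted p = 0.181), 1 model (0.135), and leaving out E7.5 control 2 (0.0996) or E9.5 control 2 or 3 (0.0666 and 0.0535). In the Oct4 line Dnajb1 also passed without E9.5 control 1 (0.22 ± 0.07, edgeR adjusted p = 0.0229). Other readouts moved with the stage, and their part in these differences was not tested. Gene models under 80 bases summed to 29.1 to 51.9 CPM in Oct4 and 31.3 to 36.8 in Nanog controls at E7.5 and to 0.634 to 1.70 at E9.5, mitochondrial genes took 3.30% to 5.50% and 2.38% to 2.88% of the counts, and the decidua markers were lower at E9.5, as given above.

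A wider set of chaperone genes, in 9 lists, gave the surroundings of the 10 members. Of these, 99 of 101 listed genes matched, Pfdn6 did not, and Hspa14 was divided over 2 gene models. In Nanog E9.5, 38 of 95 tested were lower and 7 higher, where 13.0% and 15.4% of all genes were. Against the Oct4 controls 6 of 95 were lower and none higher, where 1.81% of all genes were lower. ER chaperones had the most calls, with 13 of 17 lower and 2 higher. Among them were the ER Hsp90 paralog Hsp90b1, at 1476 ± 59.0 CPM (SD, n = 2) in controls and 1016 ± 71.1 (SD, n = 3) in induced pools (-0.57 ± 0.06), the lectin chaperone Canx (-0.46 ± 0.05) and the disulfide isomerase Pdia4 (-0.42 ± 0.06). The 2 higher ones were Sil1, an exchange factor of Hspa5 (0.53 ± 0.18), and the collagen chaperone Serpinh1 (0.22 ± 0.06). Of the unfolded protein response list, 2 of 8 were lower: Xbp1, its transcription factor (-0.49 ± 0.07), and Sel1l of ER-associated degradation (-0.24 ± 0.07).

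**Figure D5:**
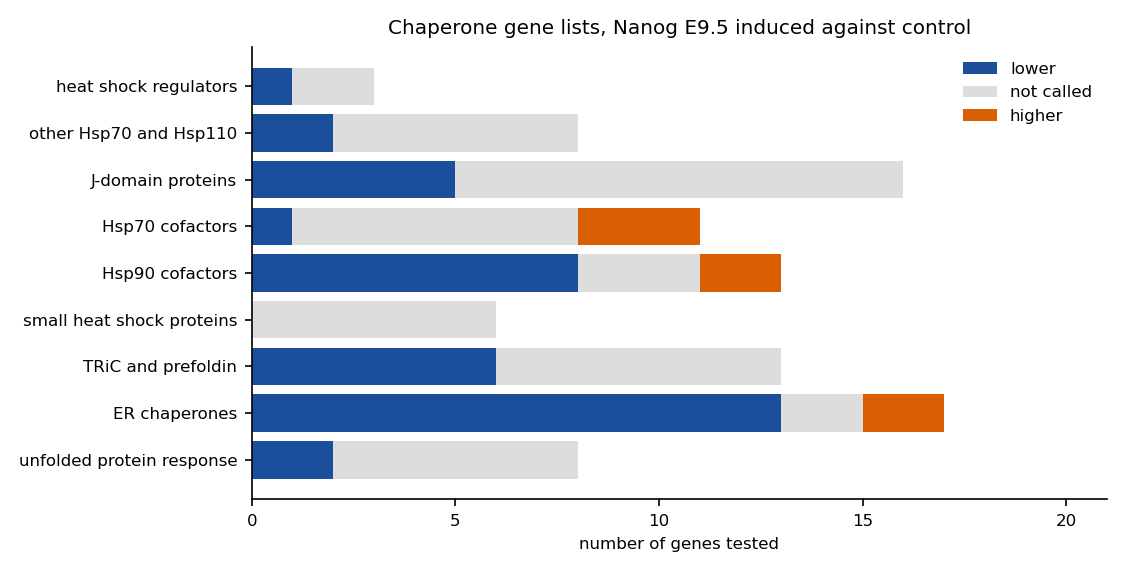
Number of genes tested in each of 9 chaperone lists (horizontal axis), split into lower (blue), not called (grey) and higher (orange) in Nanog E9.5 induced against control pools, at an adjusted p under 0.05. ER chaperones have 13 of 17 lower, while small heat shock proteins have no call among 6.

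Among Hsp90 cofactors 8 of 13 were lower and 2 higher, with Chordc1 (-0.64 ± 0.07), Cacybp (-0.52 ± 0.06) and the p23 cochaperone Ptges3 (-0.43 ± 0.07) lowest in p and Cdc37 (0.28 ± 0.06) and Unc45a (0.30 ± 0.09) higher. Of TRiC and prefoldin, which fold actin and tubulin, 6 of 13 were lower and none higher, with Vbp1 (-0.49 ± 0.08), Cct8 (-0.25 ± 0.06) and Cct4 (-0.24 ± 0.06) lowest in p. Of the other J-domain genes 5 of 16 were lower, which were Dnajb14 (-0.41 ± 0.09), Dnajc9 (-0.29 ± 0.07), Dnaja2 (-0.26 ± 0.06), Dnajc21 (-0.37 ± 0.09) and Dnajc2 (-0.23 ± 0.06). Of the other Hsp70 and Hsp110 genes 2 of 8 were lower, Hspa4l (-0.67 ± 0.08) and the mitochondrial Hspa9 (-0.25 ± 0.06). Of the Hsp70 cofactors 3 of 11 were higher and 1 lower, with a median of -0.01. The 3 were Bag6 (0.49 ± 0.07), the ubiquitin ligase Stub1 (0.42 ± 0.08) and the exchange factor Hspbp1 (0.45 ± 0.09), and the 1 was St13 (-0.29 ± 0.06). Of the regulators, Hsf2 was lower (-0.40 ± 0.09) and Hsf1, the main heat shock factor, was at 47.8 and 49.2 CPM in controls and 48.0 to 56.6 in induced pools. No small heat shock protein of 6 was called.

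In the other inductions the share of these genes called lower was no larger than that of all genes. In Oct4 E7.5, 3 of 96 were lower (3.91% of all genes) and none higher: Serpinh1 (-0.50 ± 0.09), Dnaja4 (-0.63 ± 0.15) and Hspb2 (-1.82 ± 0.36). In Nanog E7.5, Serpinh1 (-0.93 ± 0.14), the lectin chaperone Calr (-0.35 ± 0.09) and Hspa12b (-1.06 ± 0.26) were lower and Dnajb14 was higher (0.52 ± 0.12), of 95 (4.82% of all genes lower and 2.96% higher). In Oct4 E9.5, Hspa4l (-0.56 ± 0.08) and Hsf2 (-0.23 ± 0.06) were lower, of 96 (4.61% of all genes), and none was higher. The stress-inducible cytosolic Hsp70 gene Hspa1b, whose reads may be divided with its near copy Hspa1a, was low in all groups, with means between 1.51 and 7.85 CPM.

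Some members varied much like other chaperone genes across the 22 pools. Likeness was the root mean square difference of log2(CPM + 1) profiles, each centred on its own mean, among 10425 genes, with stage, line and depth shared by the pools. The 2 closest genes outside the list were Chordc1 (0.12) and Hsp90b1 (0.18) for Hsph1, Dnajc3 (0.10) and Hsp90b1 (0.11) for Hspa5, Chordc1 (0.09) and Hsp90b1 (0.09) for Dnaja1, and Dnajb11 (0.10) and Kbtbd8 (0.10) for Hsp90aa1. The closest members to each other were Hspa5 and Dnaja1, at 0.10. For the other members no chaperone gene of the wider lists was among the closest 2, which were Tmem68 and Thg1l for Hspa8, Melk and Sae1 for Hspa4, Leo1 and Ddx47 for Hsp90ab1, Tgoln1 and Cdv3 for Hspd1, Vapa and Eif1a for Hspe1, and Sertad2 and Tgfbrap1 for Dnajb1. Of these, Hspa8 had the largest distance, with Tmem68 at 0.27. The distance grows with a gene's own spread, the root mean square of its centred profile, which was 0.44 for Hspa8. Dnajb1 was at 0.13 from Sertad2 with an own spread of 0.19. The profile of Hspa8 was taken without its copies, whose share differed between the lines, and the joint level was not used.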

How the data were processed

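RNA from 22 pools of whole embryos was sequenced, and the authors deposited 1 table of expected counts per gene made with RSEM 1.17 on NCBIM37, per the submitters' processing notes, which also name cutadapt, Picard and limma. Library type and strand are not given in the sources used here. The expected counts were rounded to whole numbers. Of 37680 gene IDs, 37309 matched the annotation. Library totals were 4.72 M to 42.3 M counts, and 3 counts corresponded to 0.0709 to 0.636 CPM. Pools were grouped by the labels for line, stage and doxycycline. Each comparison was fitted on its own groups with edgeR 4.0.16 in R 4.3.3 (quasi-likelihood test, TMM scaling, edgeR's filter on low counts) and adjusted over all genes tested. Differences of changes used interaction terms. The fits were tested on simulated data.

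Alternatives were other scalings, no filter, DESeq2 1.42.0, limma-voom (limma 3.58.1), 1 model over all libraries, the replicate block and leaving out each pool. Copies were gene models elsewhere holding at least 1% of a member's 36-base stretches. Summing them with the members, using the Oct4 line's controls and comparing the controls were chosen after seeing the data. The members and the gene lists were chosen with earlier results of these data known. Genes named were all members, up to 3 called genes per list and induction with the lowest p, and the 2 genes most alike to each member with a mean of at least 5 CPM. St13, Sil1, Cdc37, Unc45a, Dnajc21, Dnajc2, Hsf1, Hspa1b and Serpinh1 in Nanog E9.5 were named after their values were seen.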

Additional observations from a re-analysis of the deposited data

Results flagged for a closer look

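The change with doxycycline at E9.5 differed between the lines, by an interaction term in edgeR, for 3 members of 10. Of all genes, 13.5% were called there and 5.57% in this direction. The difference, Oct4 line minus Nanog line, was 0.475 ± 0.10 on the log2 scale for Hspa5, from -0.03 in the Oct4 line and -0.50 in the Nanog line. It was 0.453 ± 0.10 for Dnaja1, from -0.07 and -0.52, and 0.203 ± 0.07 for Hspd1, from -0.18 and -0.37. In 1 model over all 22 libraries none of the 3 passed (edgeR adjusted p = 0.0823 for Hspa5, 0.15 for Dnaja1 and 0.408 for Hspd1). In the Nanog line the change of Hspa8 differed between stages by -0.561 ± 0.14, from -0.08 at E7.5 and -0.63 at E9.5. Hspa8 was the 1 member of 10 called, where 12.8% of all genes were called and 4.79% in this direction. It did not pass in 1 model over all 22 libraries (edgeR adjusted p = 0.324). Groups held 2 or 3 pools, too few for a test of single pools that stand apart.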

How the results depend on the processing

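Calls of members at Nanog E9.5 varied with the pool left out, and were 5 in 1 model over the 22 pools (called 1 model here). Set beside Oct4 controls they were 1, with or without copies summed. Hspa8 reversed there to 0.24 ± 0.23 without the copies and was -0.46 ± 0.13 with them. Wider chaperone genes called there numbered 45, 23 to 47 with a pool left out, 29 in 1 model and 6 against the Oct4 controls, with or without copies. At Oct4 E9.5, 1 member was called, 1 to 5 with a pool left out and 0 in 1 model; wider genes were 2, with 1 to 13, 7 without the filter, 1 with DESeq2 and 0 in 1 model. At Nanog E7.5 members called were 0, also with a pool left out, 1 in 1 model, 2 against the Oct4 controls and 3 with copies summed as well. Wider genes there were 4, with 0 to 7, 10 without the filter, 8 with DESeq2, 2 with limma-voom, 13 in 1 model and 21 against the Oct4 controls, with or without copies. At Oct4 E7.5 members called were 0, 0 to 1 with a pool left out, and 1 with library totals, DESeq2 or 1 model; wider genes were 3, with 0 to 4, and 7 with DESeq2 or 1 model. The line difference at E9.5 called 3 members, 0 to 5 with a pool left out, 5 with DESeq2 or limma-voom and 0 in 1 model. The stage difference in the Nanog line called 1, 0 to 4 with a pool left out and 0 in 1 model. Between controls, members called were 0 to 2 at E7.5 and 1 to 6 at E9.5 with a pool left out. From E7.5 to E9.5, with a pool left out, 7 to 8 members were called in the Oct4 line and 5 to 10 in the Nanog line, and 71 to 79 and 49 to 60 wider genes. The cause of these changes was not tested.

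With the replicate block, Oct4 E7.5 called 1 member (Hspa5, edgeR adjusted p = 0.0196) and 6 wider genes, Nanog E9.5 called 8 members, the Oct4 stages 9 and the Nanog stages 7. Same-numbered pools correlated at 0.289, 0.323 and 0.047 in Oct4 E7.5, each highest with its own number, and at -0.066 to 0.029 elsewhere. The main fits did not take the numbers as pairs, in Oct4 E7.5 included, and the block was an alternative. No block was fitted for Nanog E7.5 and Oct4 E9.5, whose groups share 1 number only, and none for the differences of changes.

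Leaving out a pool of a group of 2 leaves 1 sample, assumed to vary like the others. The Nanog E9.5 induced pools held at most 5.63 M counts and the Nanog E9.5 controls 15.7 M to 15.8 M. The part of depth in the calls was not tested.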
